A study of Mus musculus with 16 samples.

Results

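The 10 genes described here encode the proteases of the mitochondrial inner membrane, matrix and intermembrane space together with Immp2l. They were taken by symbol: Immp2l, Immp1l, Yme1l1, Oma1, Afg3l2, Spg7, Lonp1, Clpp, Htra2 and Parl. Each symbol matched 1 of the 57186 gene IDs in the count table, and all 10 were among the 15206 genes that passed the filter on low counts. Immp2l was chosen by its measured CPM, which were lower without TFEB after both operations, so every cKO against WT value below is a description: no p is given there, and counts past a threshold support nothing. The other 9 were set beside it by function.

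Bulk RNA sequencing measured transcripts in left ventricles of C57/BL6N mice. The animals either lacked Tfeb in cardiomyocytes (cKO) or were WT, and each had transverse aortic constriction (TAC), a narrowing of the aorta that overloads the ventricle, or a sham operation. The 4 groups were cKO TAC, cKO sham, WT TAC and WT sham, with 4 biological replicates each and 16 libraries in all. The Cre line, age, sex and time after the operation are not given in the sources used here. TFEB is a transcription factor of lysosome biogenesis; by its title, the study concerns lysosomes and mitochondria in the hypertrophied and failing heart.

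Mitochondrial proteases remove import and sorting signals from proteins, degrade misfolded or unassembled subunits, and cut regulators of membrane shape and stress signalling. Those built into the inner membrane face the intermembrane space (the IMMP complex, YME1L1, OMA1) or the matrix (AFG3L2 and SPG7 of the m-AAA protease). LONP1 and ClpP work inside the matrix. Cardiac muscle is rich in mitochondria, and mutations in several of these genes cause neurological, cardiac or multisystem disease.

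Promoter sequences (RefSeq, build GRCm38.p6, 250 bases before to 50 bases after the annotated start) were taken for 8 of the 10 genes. Htra2 and Afg3l2 were not searched, so their promoters are not described. The 8 sequences were searched on both strands for 5 motifs. These were CACGTG (the E-box at the core of the element bound by TFEB), TGATGNAAT (ATF4-CEBP), the NRF1 motif, CCGGAAG (ETS) and AAGGTCA (ERR). A pair is shown, Immp2l as the gene chosen by its genotype difference and Lonp1 because it alone of the 8 held the E-box, in capitals, at position -36 from the start. They are chr12:41023840-41024139 on the plus strand and chr17:56626854-56627153 on the minus strand.
Immp2l: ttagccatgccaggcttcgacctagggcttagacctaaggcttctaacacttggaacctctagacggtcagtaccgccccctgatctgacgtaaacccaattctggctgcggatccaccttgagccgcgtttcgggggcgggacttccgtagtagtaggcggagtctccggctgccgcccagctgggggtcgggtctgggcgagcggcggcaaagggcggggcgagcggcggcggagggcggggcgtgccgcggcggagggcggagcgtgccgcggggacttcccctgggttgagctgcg
Lonp1: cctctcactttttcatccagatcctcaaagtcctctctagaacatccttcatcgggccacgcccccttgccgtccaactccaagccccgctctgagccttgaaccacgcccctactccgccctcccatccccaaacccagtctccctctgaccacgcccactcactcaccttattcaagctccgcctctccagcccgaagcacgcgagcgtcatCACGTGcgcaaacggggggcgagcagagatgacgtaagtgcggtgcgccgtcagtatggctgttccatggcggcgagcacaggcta
The Immp2l window held none of the 5 motifs. Of 32851 promoters of this length, 7.15% held CACGTG. The NRF1 motif was found in Oma1 and Spg7 (4.6% of all promoters) and the ETS motif in Yme1l1, Clpp and Parl (8.86%). Neither TGATGNAAT (0.965%) nor AAGGTCA (4.72%) was found in any of the 8. A match describes letters in the window, not binding.

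Libraries held 12946878 to 16347388 counts. Tfeb itself averaged 12.7 ± 2.34 CPM (counts relative to library size, scaled by TMM) in cKO TAC, 10.5 ± 1.74 in cKO sham, 29.1 ± 9.77 in WT TAC and 36.5 ± 3.94 in WT sham ventricles (SD, n = 4 each), and every cKO library was below every WT library. Over 8 cardiomyocyte markers the summed level ran from 39714 to 55323 CPM in cKO TAC, 58754 to 69469 in cKO sham, 52250 to 62266 in WT TAC and 62342 to 70989 in WT sham. Over 8 fibroblast markers it ran from 3867 to 8106 CPM in cKO TAC, 1091 to 2077 in cKO sham, 2562 to 4018 in WT TAC and 849 to 1394 in WT sham. The atrial marker sum ran from 964 to 1938 CPM in cKO TAC, 265 to 694 in cKO sham, 166 to 1331 in WT TAC and 19.8 to 3613 in WT sham, the last value being that of replicate 3.

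Immp2l encodes a catalytic subunit of the inner membrane peptidase, which trims proteins on the side of the intermembrane space. Its transcript was at 4.10, 4.04, 4.81 and 4.47 CPM in cKO TAC ventricles, at 5.74, 6.86, 6.48 and 5.88 CPM in cKO sham, at 10.9, 13.6, 14.1 and 11.7 CPM in WT TAC, and at 11.0, 12.1, 11.5 and 11.4 CPM in WT sham. All 8 cKO libraries lay below all 8 WT libraries, the cKO TAC libraries lay below the cKO sham libraries, and the WT groups overlapped. These levels rest on 64 to 217 counts per library. The cKO to WT difference was -1.53 (SE 0.12) on the log2 scale after TAC, a level of 0.347 of that in WT TAC. After sham it was -0.88 (SE 0.12), a level of 0.544 of that in WT sham.

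Immp1l encodes the partner peptidase of the same complex. It was at 20.8, 20.9, 25.5 and 22.4 CPM in cKO TAC, at 33.3, 30.3, 37.2 and 34.4 CPM in cKO sham, at 24.4, 23.4, 37.1 and 27.9 CPM in WT TAC, and at 37.5, 35.6, 35.9 and 29.8 CPM in WT sham. The cKO TAC libraries were the lowest group but overlapped WT TAC, whose replicate 3 was as high as the sham libraries. Unlike Immp2l, Immp1l overlapped between the genotypes after both operations, with log2 differences of -0.33 (SE 0.13) after TAC and -0.04 (SE 0.13) after sham.

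**Figure D1:**
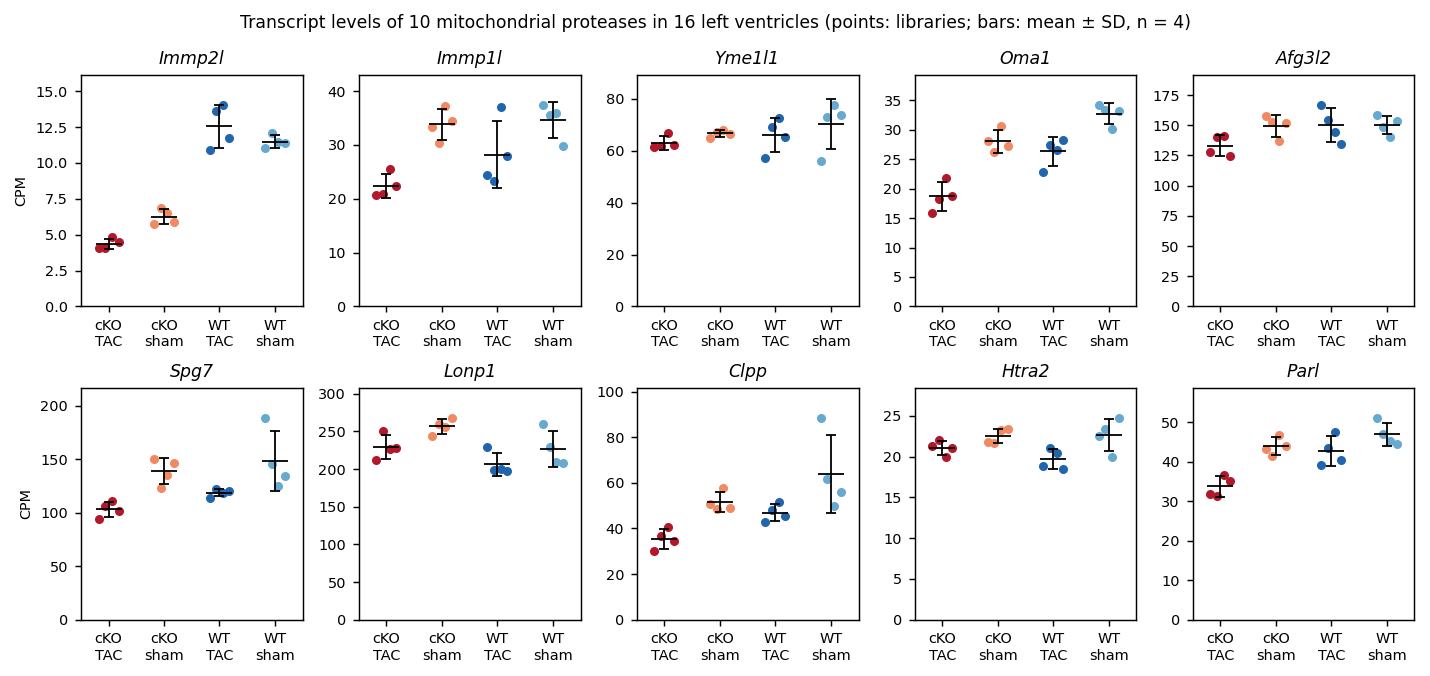
CPM of the 10 proteases (vertical axes from 0, 1 panel a gene) in cKO TAC, cKO sham, WT TAC and WT sham ventricles, with points for libraries and bars for mean ± SD (n = 4). Immp2l is the panel in which all cKO points lie below all WT points; in the panels of Oma1, Spg7, Clpp and Parl the cKO TAC points lie below those of every other group.

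After TAC in the knockout, 6 of the 10 proteases were lower than in cKO sham ventricles and none was higher, by edgeR's quasi-likelihood F-test with Benjamini-Hochberg adjustment over all tested genes (adjusted p under 0.05). Over all 15206 genes, 12.4% were called lower, 14.2% higher and 26.5% in either direction. The 6 were Immp2l, Immp1l, Oma1, Spg7, Clpp and Parl, with levels between 0.662 and 0.769 of those in cKO sham. For each of the 6, all 4 cKO TAC libraries lay below all 4 cKO sham libraries, which held for 13.8% of tested genes. The median log2 fold change of the 10 genes was -0.40, against 0.00 over all tested genes.

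Immp2l fell by 0.52 (SE 0.13, adjusted p = 0.00594) in cKO TAC, relative to cKO sham ventricles. Its partner Immp1l fell by 0.59 (SE 0.13, adjusted p = 0.00268). In bulk tissue, fewer cells of a type and less RNA per cell cannot be told apart. Beside these falls, 5 of 8 cardiomyocyte markers were called lower and 7 of 8 fibroblast markers higher in the same comparison, no marker of either list was at 0 in all libraries of a group, and the share of counts from mitochondrially encoded genes was 16.1% to 20.4% in cKO TAC and 21.9% to 24.1% in cKO sham; their part in the result was not tested.

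OMA1 is a metalloprotease that is activated by membrane stress and cuts OPA1 and DELE1. Oma1 was at 15.9, 18.3, 21.8 and 18.8 CPM in cKO TAC, at 28.2, 26.2, 30.7 and 27.2 CPM in cKO sham, at 22.9, 27.5, 26.6 and 28.3 CPM in WT TAC, and at 34.3, 33.4, 30.1 and 33.3 CPM in WT sham. Its cKO TAC libraries lay below all others, and in each genotype the TAC libraries lay below the sham libraries. The log2 fold change of TAC over sham was -0.59 in cKO (SE 0.10, adjusted p = 0.000533) and -0.31 in WT (SE 0.10, adjusted p = 0.0395), both by edgeR's quasi-likelihood test.

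YME1L1, the i-AAA protease, also cuts OPA1 and degrades proteins on the side of the intermembrane space. Yme1l1 ranged over 61.3 to 66.8 CPM in cKO TAC, 65.0 to 68.0 CPM in cKO sham, 57.4 to 72.5 CPM in WT TAC and 56.2 to 77.7 CPM in WT sham, with all 4 groups overlapping in the order of their means. Its log2 fold change was -0.08 in cKO (95% interval -0.29 to 0.12, adjusted p = 0.567) and -0.09 in WT (95% interval -0.30 to 0.12, adjusted p = 0.562). Neither passed the quasi-likelihood test.

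SPG7 (paraplegin) and AFG3L2 are subunits of the m-AAA protease, which faces the matrix and matures a ribosomal protein of the mitochondrion. Spg7 was at 94.0, 106, 111 and 102 CPM in cKO TAC, at 149.8, 123, 135 and 147 CPM in cKO sham, at 114, 122, 118 and 120.0 CPM in WT TAC, and at 188, 146, 125 and 134 CPM in WT sham. In both genotypes its TAC libraries lay below the sham libraries, and the highest value of all was WT sham replicate 1. The log2 fold change of TAC over sham was -0.43 in cKO (SE 0.11, adjusted p = 0.00755) and -0.32 in WT (SE 0.11, adjusted p = 0.0485, quasi-likelihood test). Without WT sham replicate 1 the WT value was -0.19 and no longer passed (adjusted p = 0.144).

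Afg3l2 ranged over 124 to 141 CPM in cKO TAC, 137 to 158 CPM in cKO sham, 134 to 167 CPM in WT TAC and 141 to 159 CPM in WT sham. These ranges overlapped between the operations in both genotypes. Its log2 fold change of TAC over sham was -0.17 in cKO (95% interval -0.35 to 0.01, adjusted p = 0.145) and -0.00 in WT (95% interval -0.18 to 0.18, adjusted p = 0.996), and neither passed.

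ClpP is the proteolytic chamber of the matrix protease that works with the unfoldase ClpX. Clpp was at 30.2, 36.7, 40.8 and 34.5 CPM in cKO TAC, at 50.9, 48.3, 57.9 and 49.1 CPM in cKO sham, at 42.9, 48.0, 51.5 and 45.5 CPM in WT TAC, and at 88.4, 61.8, 49.7 and 55.9 CPM in WT sham. The cKO TAC libraries lay below every other library, while the WT groups overlapped and WT sham replicate 1 stood highest. Its log2 fold change of TAC over sham was -0.54 in cKO (SE 0.14, adjusted p = 0.00932) and -0.45 in WT (SE 0.14, adjusted p = 0.0376, quasi-likelihood test). Without WT sham replicate 1 the WT value was -0.25 (adjusted p = 0.126).

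LONP1 is the other matrix protease, known for degrading oxidised proteins and the DNA-binding factor TFAM. Lonp1 ranged over 212 to 251 CPM in cKO TAC, 244 to 268 CPM in cKO sham, 197 to 229.7 CPM in WT TAC and 208 to 260.2 CPM in WT sham. It was the gene of the 10 whose 2 highest group means were both cKO groups, although its libraries overlapped between the genotypes after both operations. The cKO to WT log2 difference was 0.15 (SE 0.09) after TAC and 0.18 (SE 0.09) after sham. TAC over sham was -0.16 in cKO (adjusted p = 0.185) and -0.14 in WT (adjusted p = 0.310, quasi-likelihood test), and neither passed.

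PARL is the rhomboid protease of the inner membrane, which cuts PINK1 and PGAM5. Parl was at 31.8, 31.3, 36.6 and 35.1 CPM in cKO TAC, at 43.2, 41.4, 46.8 and 44.0 CPM in cKO sham, at 39.1, 43.6, 47.5 and 40.3 CPM in WT TAC, and at 51.0, 47.0, 45.1 and 44.5 CPM in WT sham. All cKO TAC libraries lay below all others, and the other 3 groups overlapped. TAC over sham was -0.38 on the log2 scale in cKO (SE 0.08, adjusted p = 0.00334) and -0.14 in WT (95% interval -0.32 to 0.05, adjusted p = 0.280, quasi-likelihood test).

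HTRA2 is a serine protease of the intermembrane space. Htra2 ranged over 19.9 to 22.0 CPM in cKO TAC, 21.7 to 23.4 CPM in cKO sham, 18.5 to 21.0 CPM in WT TAC and 20.02 to 24.7 CPM in WT sham, and TAC overlapped sham in each genotype. Its log2 fold change of TAC over sham was -0.10 in cKO (adjusted p = 0.452) and -0.21 in WT (adjusted p = 0.115, quasi-likelihood test). Its exons overlap those of Aup1 over 25.6% and of Loxl3 over 18.2% of their length on the opposite strand in a GRCm38 annotation, and without a stated strand setting such reads cannot be told apart.

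In WT ventricles 3 of the 10 proteases, Oma1, Spg7 and Clpp, were called lower after TAC and none higher, where 6.14% of tested genes were called lower, 9.70% higher and 15.8% in either direction. Libraries did not overlap for 2 of these, Oma1 and Spg7, against 8.44% of tested genes. The median log2 fold change of the 10 was -0.17, and that of all genes -0.01. In this comparison 2 of 8 cardiomyocyte markers were called lower and 6 of 8 fibroblast markers higher, and mitochondrially encoded genes held 17.1% to 22.6% of counts in WT TAC and 21.1% to 25.8% in WT sham; their part in the result was not tested. The 3 WT calls lay near the threshold, with adjusted p from 0.0376 to 0.0485 by the quasi-likelihood test. None of the 10 passed without WT TAC replicate 1, WT TAC replicate 2, WT sham replicate 1 or WT sham replicate 2. Calls among all genes in these fits were 1234, 1862, 2077 and 2110 in that order, against 2409. The WT value of Oma1 stayed at -0.35 to -0.26 when 1 library was left out. Without WT TAC replicate 3, in which Immp1l stood highest, Immp1l passed (-0.46 in place of -0.30, adjusted p = 0.0124 in place of 0.118).

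Immp2l was the gene of the 10 with the highest WT response, at 0.13 on the log2 scale (95% interval -0.12 to 0.38, adjusted p = 0.478). Its interaction, the difference of the cKO and WT responses (cKO minus WT), was -0.65 (SE 0.17), the lowest of the 10. The same value is the cKO to WT difference after TAC minus that after sham. Immp2l was chosen by those differences, so its interaction is a description and no p is given for it. The interaction was -0.30 for Immp1l, -0.27 for Oma1, -0.24 for Parl, -0.17 for Afg3l2, -0.10 for Spg7, -0.09 for Clpp, -0.03 for Lonp1, 0.01 for Yme1l1 and 0.11 for Htra2. By edgeR's quasi-likelihood test no protease and 0.00% of all tested genes passed for the interaction. Of the 15206 tested genes 715 had an unadjusted p under 0.05, a share near the 0.05 that chance alone would give. DESeq2 called 3 genes and limma voom 0, with none of the 10 among them. A TAC response past the threshold in cKO alone is thus not shown to differ from that in WT.

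**Figure D2:**
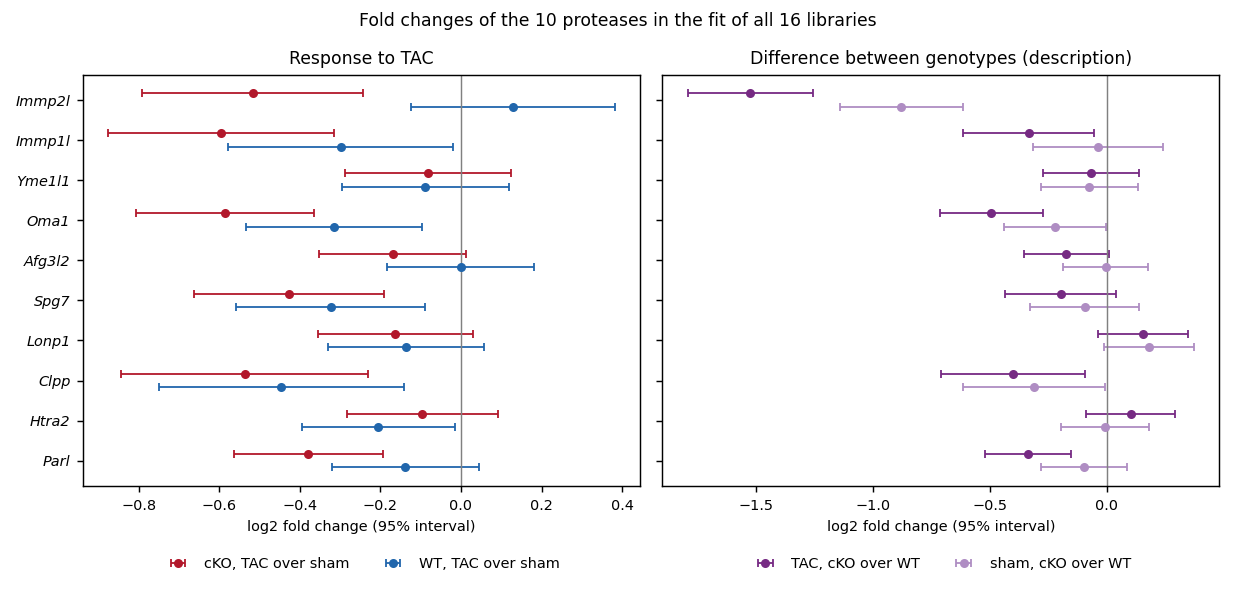
Log2 fold changes of the 10 proteases (horizontal axis) with 95% intervals from the fit of 16 libraries: TAC over sham in cKO and WT at left, cKO over WT after TAC and after sham at right as a description. In the knockout all 10 TAC estimates lie below 0 with TMM, from -0.59 to -0.08 (with library totals Afg3l2, Htra2, Lonp1 and Yme1l1 lie above it); in WT Immp2l lies at 0.13 and the other 9 below 0 (with library totals Afg3l2 and Yme1l1 above it).

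The direction of these values depends on how libraries were scaled. TMM factors were 1.03 to 1.14 in cKO TAC, 0.915 to 0.979 in cKO sham, 0.973 to 1.06 in WT TAC and 0.908 to 0.998 in WT sham. With library totals alone the median log2 fold change of all genes moved by 0.19 for TAC over sham in cKO and by 0.12 in WT. Then 6 of the 10 proteases remained below 0 in cKO, with Afg3l2, Htra2, Lonp1 and Yme1l1 above it, while all 10 were below the median of all genes. Of the 6 calls in cKO, Immp1l, Oma1 and Clpp passed with library totals; Immp2l (-0.33, adjusted p = 0.0535), Spg7 (-0.24, adjusted p = 0.0743) and Parl (-0.19, adjusted p = 0.0729, edgeR) did not. Among all genes the split in cKO was 4013 higher and 877 lower with library totals, against 2154 higher and 1880 lower with TMM; in WT it was 2170 and 432, against 1475 and 934. With library totals Immp2l was at 0.25 (adjusted p = 0.146) in WT TAC relative to WT sham, and none of the 10 passed in WT.

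Between the genotypes the values are descriptions, since this contrast chose Immp2l. After TAC the cKO to WT log2 difference was -0.49 (SE 0.10) for Oma1, -0.40 for Clpp, -0.34 (SE 0.08) for Parl, -0.20 for Spg7, -0.17 for Afg3l2, -0.07 for Yme1l1 and 0.10 for Htra2. After sham it was -0.31 for Clpp, -0.22 for Oma1, -0.10 for Spg7, -0.10 for Parl, -0.07 for Yme1l1, -0.01 for Htra2 and -0.00 for Afg3l2. Beside Immp2l, which the choice itself placed there, the threshold used for the other comparisons was crossed by Oma1 and Parl after TAC, 3 genes in all, and by none of the other 9 after sham, 1 gene in all. The share of tested genes past it was 1.18% lower, 0.598% higher and 1.78% in either direction after TAC, and 0.552% lower, 0.618% higher and 1.17% in either direction after sham. Nothing is read from these counts against those shares. The count after TAC was 1 when WT TAC replicate 2 or 3, or cKO TAC replicate 1, 2 or 4, was left out. Calls among all genes in those fits were 13, 20, 28, 20 and 39 in that order, against 271. After TAC the cKO libraries lay below the WT libraries for Oma1, Spg7, Clpp and Parl beside Immp2l, 5 of the 10 (5.11% of tested genes), and after sham for Immp2l alone of the 10 (3.59%). For none of the 10 did they lie wholly above, where 4.89% of tested genes did after TAC and 4.00% after sham. With library totals the split of all genes after TAC was 116 higher and 118 lower in cKO, against 91 and 180 with TMM; fitted on these groups alone it was 73 and 79.

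Levels can be compared between genes only per exon length. Lonp1 was highest in both cKO groups and in WT TAC, at 52.5 ± 3.597 CPM per kb in cKO TAC, 58.7 ± 2.23 in cKO sham and 47.2 ± 3.58 in WT TAC (SD, n = 4 each). In WT sham Clpp (52.3 ± 13.9 CPM per kb) and Lonp1 (51.9 ± 5.55) did not differ beyond their spread. Immp2l was the lowest of the 10 in cKO TAC (2.38 ± 0.196 CPM per kb), cKO sham (3.41 ± 0.286) and WT sham (6.27 ± 0.245). In WT TAC it stood at 6.86 ± 0.821 CPM per kb, beside Htra2 at 6.68 ± 0.415. These are mean levels on the joined length of all annotated exons of a gene in a GRCm38 annotation, not on the length of 1 transcript. That length was 1832 bases for Immp2l, 8009 for Yme1l1 and 9874 for Afg3l2, and the order of the genes depends on it.

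**Figure D3:**
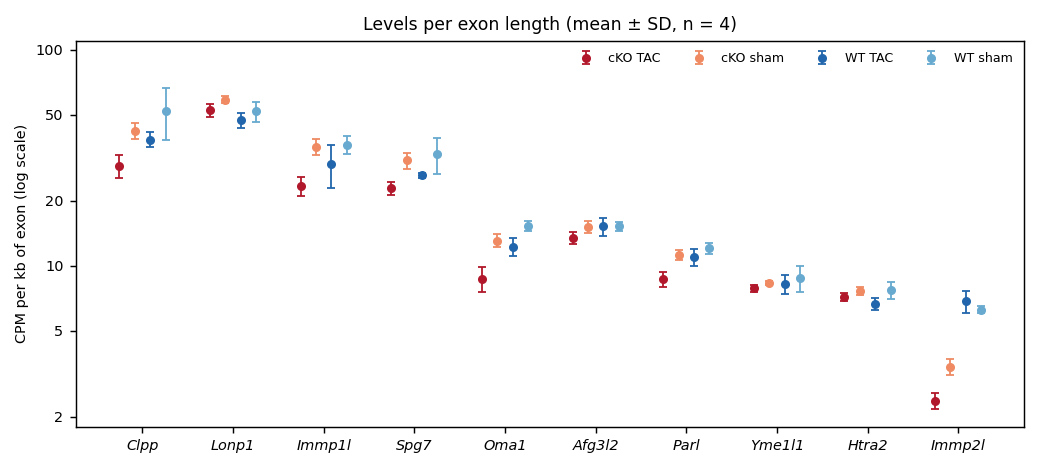
CPM per kb of exon on a log axis for the 10 proteases (ordered by WT sham level), with points for group means and bars for SD (n = 4). Clpp and Lonp1 lie at the top, between 29.1 and 58.7, and Immp2l at the bottom, with its cKO means at 2.38 and 3.41 and its WT means at 6.86 and 6.27.

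Ratios of counts within a library do not depend on scaling. The Immp2l to Immp1l ratio, between both peptidases of the IMMP complex, was 0.198, 0.193, 0.189 and 0.200 in cKO TAC, 0.172, 0.226, 0.174 and 0.171 in cKO sham, 0.446, 0.582, 0.379 and 0.421 in WT TAC, and 0.294, 0.340, 0.319 and 0.381 in WT sham. All cKO libraries had less Immp2l per Immp1l than any WT library. TAC over sham was 0.08 on the log2 scale in cKO (exact permutation p = 0.543) and 0.44 in WT (exact permutation p = 0.0571, adjusted p = 0.152 over the 8 ratio tests). In both genotypes the groups overlapped, in WT through replicate 3 of TAC and replicate 4 of sham.

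The Oma1 to Yme1l1 ratio sets both OPA1-cutting proteases against each other. It was 0.259, 0.296, 0.326 and 0.302 in cKO TAC, 0.433, 0.389, 0.451 and 0.409 in cKO sham, 0.398, 0.399, 0.367 and 0.434 in WT TAC, and 0.610, 0.457, 0.388 and 0.450 in WT sham. The cKO TAC libraries lay below all others, while the WT groups overlapped. The log2 difference of TAC over sham was -0.51 in cKO (two-sided exact permutation p = 0.0286, the smallest that 70 relabelings can give; adjusted p = 0.152) and -0.24 in WT (exact permutation p = 0.114).

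Afg3l2 to Spg7 is a ratio of subunits of the m-AAA protease. It ranged over 1.22 to 1.36 in cKO TAC, 1.01 to 1.24 in cKO sham, 1.12 to 1.46 in WT TAC and 0.843 to 1.14 in WT sham. TAC over sham was 0.25 in cKO (exact permutation p = 0.0571) and 0.30 in WT (exact permutation p = 0.0857), and neither passed. The Clpp to Clpx ratio ranged over 0.478 to 0.634 in cKO TAC, 0.517 to 0.590 in cKO sham, 0.501 to 0.623 in WT TAC and 0.411 to 0.796 in WT sham. Its TAC over sham differences were -0.07 in cKO (exact permutation p = 0.486) and 0.04 in WT (exact permutation p = 0.914). None of the 8 ratio tests passed after adjustment, and with 4 libraries against 4 a lone ratio could not have passed.

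**Figure D4:**
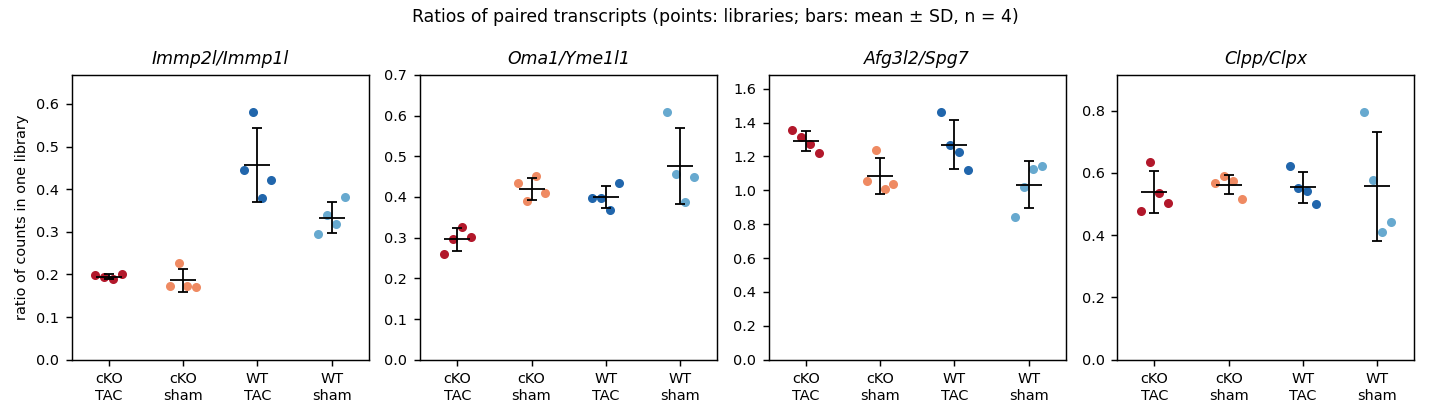
Ratio of the counts of paired transcripts in 1 library (vertical axes from 0) in cKO TAC, cKO sham, WT TAC and WT sham, with points for libraries and bars for mean ± SD (n = 4). Immp2l/Immp1l lies at 0.171 to 0.226 in cKO libraries and 0.294 to 0.582 in WT libraries, and Oma1/Yme1l1 is lowest in cKO TAC.

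Genes that work with these proteases were counted in 4 lists, against the same backgrounds. Over all tested genes 12.4% were called lower and 14.2% higher in cKO, and 6.14% lower and 9.70% higher in WT. Of 11 other processing and clearing peptidases and partners, 5 fell after TAC in cKO and 4 in WT, and none rose. Mipep, which trims imported matrix proteins, fell by 0.65 in cKO (SE 0.11, adjusted p = 0.000324) and by 0.51 in WT (SE 0.11, adjusted p = 0.00337). Clpx, the unfoldase partner of Clpp, fell by 0.47 in cKO (adjusted p = 0.00436) and by 0.44 in WT (adjusted p = 0.00995). Pmpcb, a subunit of the presequence protease, fell by 0.39 in cKO (adjusted p = 0.00506) and was at -0.07 in WT, and Pitrm1, which clears presequence peptides, fell by 0.35 in cKO (adjusted p = 0.00478) and was at -0.20 in WT, all by edgeR's quasi-likelihood test. The list's median log2 fold change was -0.35 in cKO and -0.20 in WT.

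Prohibitins form ring complexes of the inner membrane that bind the m-AAA protease. Of 5 genes of this scaffold and its regulators, 3 fell after TAC in cKO and none in WT. Phb fell by 0.53 in cKO (SE 0.14, adjusted p = 0.0085, edgeR) and was at -0.35 in WT (adjusted p = 0.0872). Phb2 fell by 0.35 and Ghitm by 0.38 in cKO, against -0.08 and -0.26 in WT. The list had a median of -0.35 in cKO and -0.17 in WT.

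The substrate list held 17 genes whose protein, or its yeast counterpart as for Cyb5r3, was taken to be cut or degraded by these proteases. Whether the mouse proteins are substrates was not tested here. Of the 17 transcripts, 11 fell and 2 rose in cKO TAC, and 3 fell and 1 rose in WT TAC, each relative to its sham group. Pink1, a kinase of damaged mitochondria cut by PARL, averaged 380.1 ± 56.5 CPM in cKO TAC and 723 ± 84.3 in cKO sham, and 508 ± 74.5 in WT TAC and 888 ± 183 in WT sham (SD, n = 4 each). It fell by 0.93 in cKO (SE 0.15, adjusted p = 0.000311) and by 0.81 in WT (SE 0.15, adjusted p = 0.00165, edgeR). Dele1, the stress relay cut by OMA1, fell by 0.68 in cKO and by 0.34 in WT. Cyb5r3, a reductase whose yeast counterpart is cut by the inner membrane peptidase, rose by 0.64 in cKO (SE 0.13, adjusted p = 0.00135, edgeR), and was at 0.36 in WT. Prelid1, a lipid-transfer protein degraded by YME1L1, rose by 0.69 in cKO and by 0.51 in WT. The median was -0.34 in cKO and -0.24 in WT.

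Of 10 genes of the mitochondrial unfolded protein response, 7 fell in cKO TAC and none rose, while in WT TAC 2 fell and 1 rose. The matrix chaperones Hspd1 and Hspa9 fell by 0.59 (SE 0.10, adjusted p = 0.000403) and 0.45 (SE 0.09, adjusted p = 0.00173) in cKO, against -0.32 (adjusted p = 0.0338) and -0.25 (adjusted p = 0.069, all edgeR) in WT. Their co-chaperones Dnaja3 and Grpel1 fell by 0.41 and 0.38 in cKO, against -0.03 and -0.10 in WT. Atf4, a transcription factor of the integrated stress response, was the gene that rose in WT TAC (0.34, adjusted p = 0.0186); it was at 0.10 in cKO (adjusted p = 0.483). No gene of the 4 lists passed for the interaction, so no difference between the genotypes in these responses is shown.

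**Figure D5:**
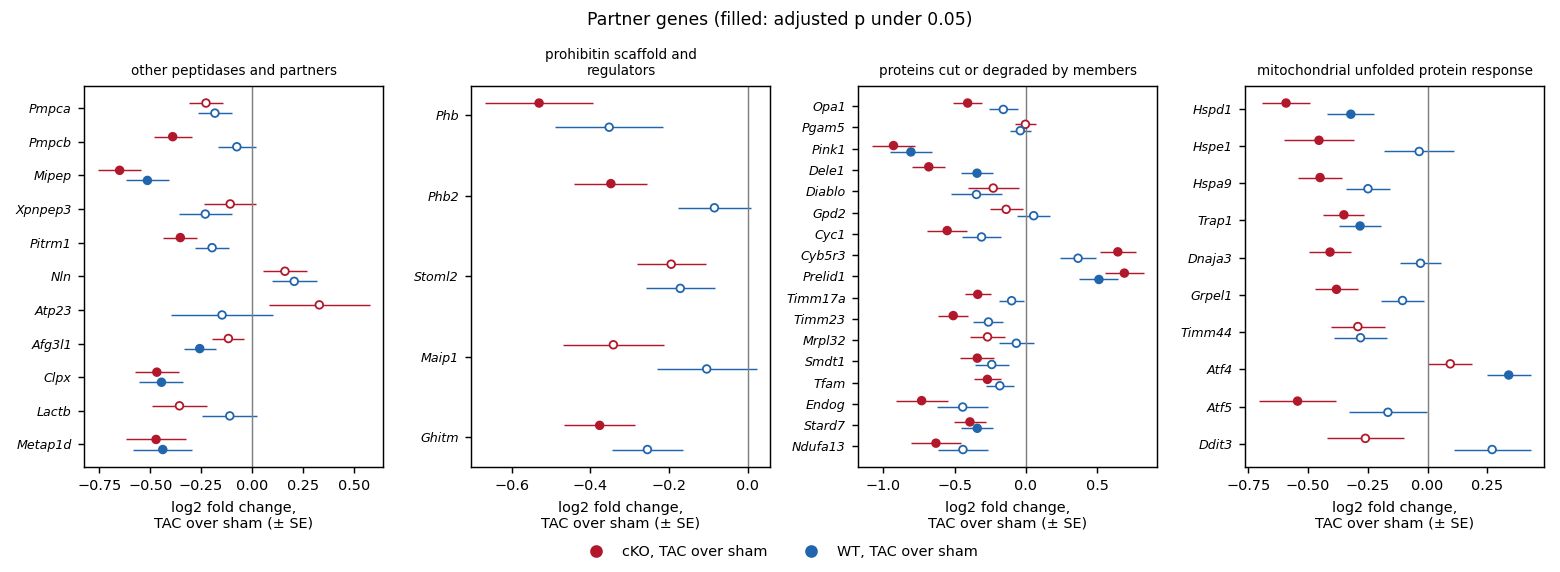
Log2 fold change of TAC over sham (± SE) for the genes of the 4 lists in cKO and WT, filled where the adjusted p was under 0.05. Most points lie below 0 in both genotypes. Cyb5r3 and Prelid1 lie above 0 in the list of proteins taken to be cut or degraded by the proteases.

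With library totals alone the counts of lower calls in cKO fell to 2 of the 11 peptidases, 1 of the 5 prohibitin genes, 6 of the 17 substrates and 3 of the 10 stress genes. In WT they were 2, 0, 1 and 0 in the same order. Lower calls among all 15206 genes fell as well, from 1880 to 877 in cKO and from 934 to 432 in WT. Higher calls among all genes went from 2154 to 4013 in cKO and from 1475 to 2170 in WT, so the change is not particular to these lists. Higher calls under that scaling were Nln (0.35, adjusted p = 0.0335), Atf4 (0.29, adjusted p = 0.0246), Cyb5r3 and Prelid1 in cKO, and Cyb5r3 (0.50, adjusted p = 0.0235, all edgeR), Prelid1 and Atf4 in WT. Mipep, Clpx and Pink1 passed in both genotypes under that scaling too.

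Single libraries moved the WT counts of these lists, as they did those of all genes. Lower calls among all genes in WT ranged from 337 (without WT TAC replicate 1) to 1004 (without cKO TAC replicate 1), against 934. Higher calls ranged from 897 (without WT TAC replicate 1) to 1526 (without cKO sham replicate 2), against 1475. When 1 library was left out, lower calls in WT ranged over 2 to 4 of the 11 peptidases, 0 to 1 of the 5 prohibitin genes, 1 to 4 of the 17 substrates and 0 to 3 of the 10 stress genes, and higher calls over 0 to 2 substrates and 0 to 1 stress genes. The peptidase count was 2 without WT sham replicate 2 or 4, and the prohibitin count was 1 without WT sham replicate 1 or cKO TAC replicate 1. The substrate count was 1 without any of the 4 WT TAC libraries, without WT sham replicate 1, 2 or 4, without cKO sham replicate 4 or without cKO TAC replicate 4. No substrate rose without WT TAC replicate 1 or WT sham replicate 2, and 2 rose without WT TAC replicate 3, WT sham replicate 1, cKO TAC replicate 1 or cKO TAC replicate 3. The stress gene count was 0 without WT TAC replicate 1 or 2 or WT sham replicate 2 or 4, and 1 without WT TAC replicate 3 or 4; Atf4 was not called without WT TAC replicate 1 or WT sham replicate 4. In cKO lower calls ranged over 4 to 7, 3 to 5 (5 without WT sham replicate 1), 8 to 12 and 5 to 8 in the order of lists above. Among all genes they ranged from 1273 (without cKO TAC replicate 1) to 2228 (without WT sham replicate 1) in cKO, against 1880.

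The transcripts most like Immp2l across the 16 libraries, by Pearson's r of log2 CPM over 12432 genes, were Ctnna3 (0.939), Ppp2r3a (0.933), Tmem150c (0.902), Lzic (0.889) and Dcakd (0.882). The libraries share a genotype split, so these values follow the differences between group means. Within groups, the correlation of deviations from the group mean was 0.07 for Ctnna3, 0.45 for Ppp2r3a, 0.34 for Tmem150c, 0.16 for Lzic and 0.32 for Dcakd. Ctnna3, an adhesion protein of the intercalated disc, averaged 7.41 ± 0.981 CPM in cKO TAC, 8.71 ± 1.215 in cKO sham, 17.3 ± 1.96 in WT TAC and 17.3 ± 2.22 in WT sham (SD, n = 4 each). Among the proteases the highest likeness to Immp2l was that of Parl (0.722) and Oma1 (0.714), and the lowest that of Lonp1 (-0.49). By deviations from the group mean the order was another. Yme1l1 was highest (0.62, against 0.38 over all libraries), then Parl (0.60) and Oma1 (0.45), and Lonp1 was lowest (-0.31).

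Immp2l spans 931.5 kb in the GRCm38 annotation, the longest of the 10 genes, the others spanning 4.008 to 60.92 kb. Its neighbours were not called different between the genotypes. Dock4, before it, averaged 11.4 ± 1.38 CPM in cKO TAC, 10.2 ± 2.11 in cKO sham, 13.4 ± 0.986 in WT TAC and 13.0 ± 1.60 in WT sham (SD, n = 4 each), and Dnajb9, after it, 41.4 ± 4.53, 48.0 ± 1.97, 44.8 ± 1.47 and 46.6 ± 11.9 in the same order of groups. The cKO to WT log2 difference of Dock4 was -0.22 (SE 0.14) after TAC and -0.35 (SE 0.14) after sham. After TAC all its cKO libraries lay below the WT libraries, which held for 5.11% of tested genes, and after sham they overlapped. For Dnajb9 the differences were -0.11 after TAC and 0.04 after sham, and its libraries overlapped in both. Lrrn3, which lies inside Immp2l, was under 0.4 CPM on average in every group and was not tested.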

How the data were processed

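Raw counts by gene ID, 1 column a library, are what the authors deposited; the submitters' processing notes list featureCounts 2.0.6, HISAT2 2.0.5, fastp 0.22.0, FastQC and SAMtools 1.21, and the build GRCm39. Strandedness and annotation release are not given in the sources used here. Symbols were matched for 51880 of 57186 IDs (99.5% of counts); lengths and overlaps came from a GRCm38 annotation.

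The tests used edgeR 4.0.16 (R 4.3.3): filterByExpr, TMM, and 1 robust quasi-likelihood fit of 16 libraries with 4 group means (12 residual degrees of freedom, biological coefficient of variation 16.5%). There were 5 comparisons, each adjusted by Benjamini-Hochberg over 15206 genes. SE were derived from the F statistic; 95% intervals used 12 degrees of freedom. P-values cover the spread between samples labelled biological replicates. Ratios were compared by two-sided exact permutation tests.

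The 10 genes and the lists were chosen with earlier results of these data known. All 10 were named in every comparison, and up to 4 genes per list by smallest adjusted p; Atf4, outside that rule, was named after its values were seen, and 1 gene of the list of proteins cut or degraded by the proteases is not reported here. The 5 genes most like Immp2l were ranked among those with a mean of at least 1 CPM. The fit was tested on simulated data.

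Alternatives were DESeq2 1.42.0 size factors, library totals, limma 3.58.1 voom, no filter or a minimum of 1 CPM in 4 libraries, and DESeq2's own test. Others were the compared groups alone, a replicate block, no mitochondrially encoded genes, and each library left out. A further fit, chosen after seeing the data, left out WT sham replicate 3 and WT TAC replicate 4. These had the most atrial transcripts among the WT libraries, and cKO libraries were all kept.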

Additional observations from a re-analysis of the deposited data

Results flagged for a closer look

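In the 40 groups of 4 libraries examined (10 genes in 4 groups), 2 held a library set apart from the other 3 by Dixon's criterion, which chance alone gives in about 1 of 20 groups. Lonp1 in WT TAC replicate 1 was at 229.7 CPM, against 197 to 200.1 CPM in the other WT TAC libraries. Yme1l1 in cKO TAC replicate 3 was at 66.8 CPM, against 61.3 to 62.2 CPM in the other cKO TAC libraries.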

How the results depend on the processing

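For TAC over sham in cKO the count of 6 called proteases was 3 with library totals, and 6 in each of the 16 fits without 1 library and under every other alternative. For TAC over sham in WT the count of 3 was 0 with library totals and with the compared groups alone, 1 with no filter on low counts, 1 with limma voom, and 0 to 3 when 1 library was left out; it was 1 without WT TAC replicate 4, cKO sham replicate 1, cKO sham replicate 4 or cKO TAC replicate 4. For cKO over WT after TAC, 3 became 1 with the compared groups alone and without WT sham replicate 3 and WT TAC replicate 4 (the WT sham and WT TAC libraries with the highest atrial marker sums), and 1 to 4 when 1 library was left out. After sham it was 1 throughout. The cause of these changes was not tested. Some same-numbered replicates deviated together, but in no comparison all 4 pairs (correlations from -0.06 to 0.28 for TAC and sham in cKO, -0.20 to 0.09 in WT, -0.03 to 0.29 for cKO and WT after TAC and -0.06 to 0.12 after sham), so the numbers were not taken to pair the samples; with a replicate block the WT count was 1, the cKO count 6, and the counts for cKO over WT 2 after TAC and 1 after sham. The ratio tests had little room to pass in any alternative, so they show nothing of stability. Over all genes, calls for cKO over WT after TAC ranged from 13 (without WT TAC replicate 2) to 912 (without cKO TAC replicate 3), against 271; no filter gave 438, DESeq2 838, the compared groups alone 152 and the fit without the 2 atrial-rich WT libraries 165. After sham they ranged from 59 (without cKO sham replicate 4) to 546 (DESeq2), against 178. TAC over sham in WT gave 1234 without WT TAC replicate 1, against 2409. Immp2l rests on 64 to 217 counts a library, the lowest of the 10.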

Other observations

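Within the TAC groups, replicate 3 was the library with the highest level of several proteases in both genotypes. In cKO TAC, replicate 3 had the highest Immp2l (4.81 CPM), Immp1l (25.5 CPM), Oma1 (21.8 CPM), Spg7 (111 CPM), Clpp (40.8 CPM), Parl (36.6 CPM), Yme1l1 (66.8 CPM) and Afg3l2 (141 CPM), and also the highest share of mitochondrially encoded counts, 20.4% against 16.1% to 16.3% in the other cKO TAC libraries. In WT TAC, replicate 3 had the highest Immp2l (14.1 CPM), Immp1l (37.1 CPM), Yme1l1 (72.5 CPM), Clpp (51.5 CPM) and Parl (47.5 CPM), with 22.6% of counts mitochondrially encoded, against 17.1% to 19.95% in the other WT TAC libraries. Lonp1 and Htra2 did not follow in either group, and Htra2 was lowest in cKO TAC replicate 3 (19.9 CPM). In WT TAC, Oma1 (26.6 CPM), Spg7 (118 CPM) and Afg3l2 (145 CPM) were not highest in replicate 3 either. Replicate 3 also had the lowest TMM factor of its group, 1.03 in cKO TAC and 0.973 in WT TAC, and the part of scaling was not tested.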
